A study of Chlorocebus aethiops with 8 samples.

Results

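RNA on polysomes was compared between COS cells given siRNA against RNA helicase A (RHA) and cells given scrambled control siRNA. The comparison uses 4 of the 8 arrays of the study, chosen by their titles: the arrays of polysomal RNA under RHA downregulation, numbers 1 and 2, against the polysomal control arrays of the same numbers. The other 4 arrays hold cytoplasmic RNA under the same treatments. The first group was polysomal RNA from cells transfected with RHA siRNAs at 0.5 nM against positions 2701 to 2721 and 2784 to 2803 in the coding sequence of human RHA (n = 2), and the second was polysomal RNA from cells given scrambled siRNAs at 0.5 nM (n = 2). In every group the cells grew on 7 plates of 100 mm, spent 4 h without serum and 24 h in 10% fetal bovine serum, and were then split and transfected a second time. COS cells are a kidney line of the African green monkey that expresses the large T antigen of SV40, and their RNA was read by probes made for the rhesus macaque. Polysomes were collected from cytoplasmic lysates on sucrose gradients, and 25 ng of RNA was amplified and biotin-labelled for each array. Arrays with the same number in their titles are called set 1 and set 2.

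RHA, the product of DHX9, is a DExD/H-box helicase that unwinds double-stranded RNA and RNA–DNA hybrids and also acts in transcription and RNA processing. In the cytoplasm it is known to bind a structured element in the 5′ leader of some viral RNAs and of JUND mRNA and to help their translation. Polysomes are mRNAs carrying several ribosomes, so an mRNA's level in this fraction reflects both how much of it the cell holds and how much of that is loaded with ribosomes.

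Arrays of the 2 sets differed more than arrays of the 2 treatments. Across probe sets, which are not independent of each other, Pearson's r was 0.971 between the RHA siRNA and control arrays of set 1 and 0.98 in set 2, against 0.847 to 0.861 between polysomal arrays of different sets. Differences between RHA siRNA and control are therefore given within each set, as a log2 difference of the deposited intensity, and as their mean. Of 18 kidney tubule markers, 11 lay above the limit of measurement, a mean log2 intensity of 4.32 that 50% of probe sets reach. EPCAM, PAX8 and AQP1 were among them, while PAX2, CDH1, LRP2, CUBN, SLC12A1, SLC12A3 and UMOD lay below. Of 12 fibroblast and mesenchymal markers 10 lay above it, among them VIM and FN1. Each marker was read by its brightest probe set. Over all 8 arrays, 10106 of 14133 genes with a probe set had at least 1 that reached the limit, so these counts alone do not identify the cells. Markers of other cell types were present too: 4 of 5 neuronal markers lay above the limit, with SYT1 at a mean log2 intensity of 8.95 and ENO2 at 11.71, and so did 2 of 6 hepatocyte markers, SERPINA1 at 8.69 and CYP3A4 at 5.75. PTPRC, the defining leukocyte marker, lay below it, and 4 of 13 leukocyte markers lay above it. Probe sets along the same control transcript also differed: the 3′ minus 5′ difference of actin was log2 5.86 and 7.06 in the RHA siRNA arrays of sets 1 and 2, against 4.15 and 7.49 in the control arrays, and that of GAPDH was 4.67 and 4.63, against 3.04 and 4.91. In set 1 both were thus larger under RHA siRNA, by 1.71 and 1.63, and in set 2 both were smaller (-0.43 and -0.28). The difference of EF1a, the third such transcript, was larger by 0.23 in set 1 and smaller in set 2 (-0.28). The part of this in the set 1 differences below was not tested.

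DHX9, the target of the siRNA, had intensities of 97.2 and 269 in the RHA siRNA arrays of sets 1 and 2, against 359 and 477 in the control arrays. Both knockdown arrays lay below both controls. The log2 difference was -1.89 in set 1 and -0.83 in set 2, and the mean corresponds to 39.0% of control (log2 -1.36, SE 0.59; group means 7.34 ± 1.04 and 8.69 ± 0.29, SD, n = 2 each). Its adjusted p in limma was 1.00, or 0.963 when the model also held the replicate number (the replicate block). SE values here and below are from the fit without the block, so they include the spread between the sets. With the block the SE of DHX9 was 0.31. Of the 3 other probe sets that carry the symbol, all too dim to be tested, the first had -0.70 and 0.09, the second -0.87 and -0.02, and the third, under another gene ID, 0.13 and -0.09. The lower DHX9 signal in set 2 thus rests on 1 probe set, whose suffix marks probes shared between transcripts. Each array received the same mass of RNA, so all values are relative levels, and fewer cells with a given RNA cannot be told apart from less of it per cell.

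No probe set passed the test. Of 26383 probe sets measured, limma called 0 (0%) at an adjusted p under 0.05, without or with the replicate block, and 137 (0.519%) had an unadjusted p under 0.05, or 1334 (5.06%) with the block. What follows describes sizes and agreement between the 2 sets, and no difference named below reached the threshold over all probe sets. In both sets 51 probe sets (0.193%) were at least 2-fold higher under RHA siRNA and 20 (0.0758%) at least 2-fold lower, while 19 (0.072%) were at least 2-fold lower in set 1 and as much higher in set 2, and 3 (0.0114%) went the other way. At 1.5-fold in both sets there were 381 (1.44%) higher and 295 (1.12%) lower. With 1 probe set per gene, the brightest, 130 of 10106 genes (1.29%) were at least 1.5-fold higher in both sets and 130 (1.29%) at least 1.5-fold lower. Across probe sets, the differences of set 1 and set 2 had a Pearson's r of 0.136. Single sets differed in balance: set 1 had 488 probe sets at least 2-fold higher and 857 lower, and set 2 had 491 and 139.

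**Figure D1:**
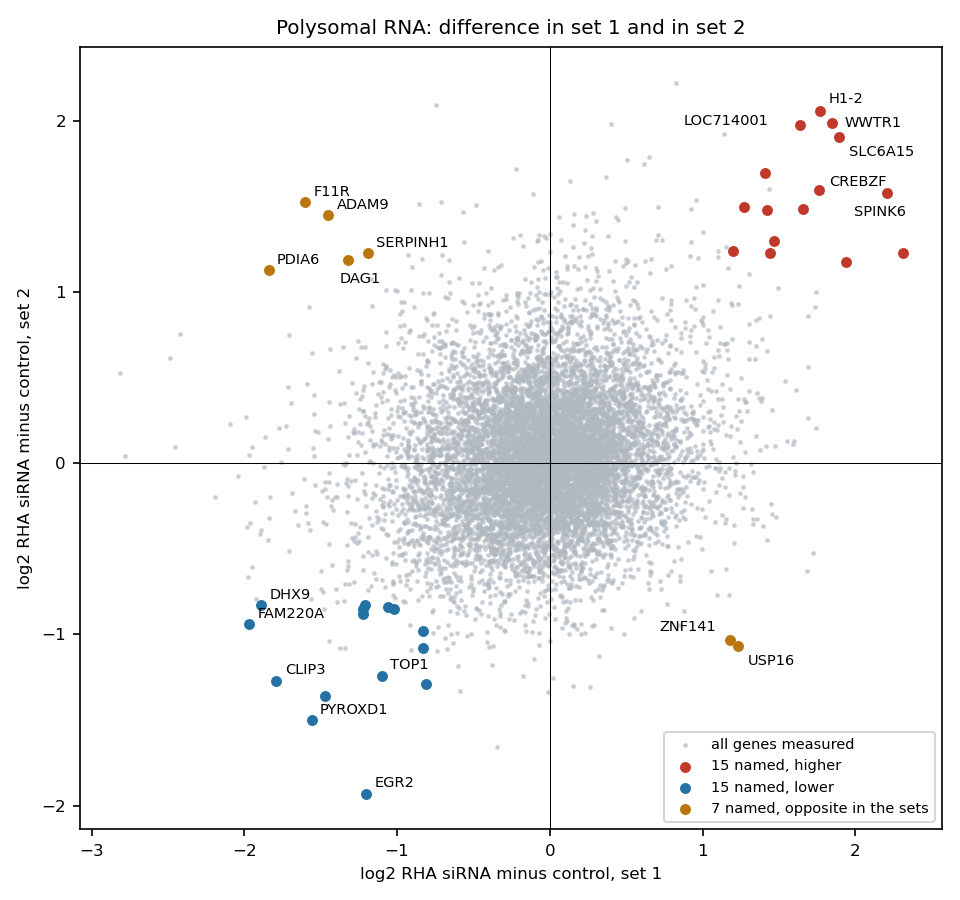
Log2 RHA siRNA minus control in polysomal RNA, set 1 on the horizontal and set 2 on the vertical axis, with 1 grey point for each of 10106 genes (the brightest probe set) and colours for the genes named by rule. The 15 named genes higher in both sets reach log2 2.31 in set 1 (CSTA) and 2.06 in set 2 (H1-2), the 15 lower ones reach -1.97 (FAM220A) and -1.93 (EGR2), and 7 genes lie in the corners where the sets disagree.

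The genes named first are those whose RHA siRNA arrays both lay on the same side of both control arrays, ordered by the smaller of the 2 within-set differences. Such separation was found for 2086 probe sets (7.91%) on the high side and 2054 (7.79%) on the low side, and for 805 genes (7.97%) and 913 genes (9.03%) with the brightest probe set of each. Since size and separation chose these genes, their values are a description. All 15 on the high side were at least 2.33-fold of control as a mean, up to 3.79-fold, with SE between 0.34 and 1.03 on the log2 scale. The 15 on the low side lay between 33.8% and 53.3% of control, with SE between 0.30 and 0.74. Every one of these 30 had an adjusted p of 1.00 in limma, and with the block the lowest was 0.473. Levels of different genes cannot be set against each other on an array, because each probe set has its own brightness.

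Among the higher genes, SLC6A15, a sodium-dependent transporter of neutral amino acids, had intensities of 174 and 175 under RHA siRNA, against 46.9 and 46.6 in controls. The arrays of each group were close to each other, and the log2 difference was 1.89 in set 1 and 1.91 in set 2, a mean of 3.74-fold (SE 0.34). KDELR2, one of the receptors that return chaperones from the Golgi to the endoplasmic reticulum, had 93.8 and 164 under RHA siRNA, against 38.8 and 57.7 in controls. It was higher by log2 1.27 and 1.5 in the 2 sets (2.62-fold, SE 0.43). Its further measured probe sets had 0.49 and 0.04, and 0.23 and 2.16, all above 0 but small in 1 set each. COG1, a subunit of a complex that tethers vesicles at the Golgi, had 159 and 248, against 57.2 and 101 in controls. Its differences were 1.47 and 1.30, but only 1 of its 3 further measured probe sets was higher in both sets (1.28 and 1.36). The others were lower in both (-0.21 and -0.32, and -0.79 and -0.28).

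ELOVL6, which lengthens saturated fatty acids of intermediate chain length, was read by 4 probe sets. The one named by the rule had 290 and 415 under RHA siRNA, against 107 and 177 in controls (2.53-fold, SE 0.45). All 3 others were higher in both sets, with log2 differences of 1.5 and 1.03, of 1.15 and 1.06, and of 0.49 and 0.69 in sets 1 and 2. NOL4, a nucleolar protein, was likewise higher on both of its probe sets, by 1.42 and 1.48 on the named one and by 1.07 and 1.32 on the other. Its intensities on the named one were 173 and 71.6 under RHA siRNA, against 64.4 and 25.6 in controls.

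Among regulators of transcription, WWTR1 (TAZ), a coactivator of the Hippo pathway, had 216 and 349 under RHA siRNA, against 59.7 and 87.7 in controls. Both sets showed a similar size, log2 1.85 and 1.99 (3.79-fold, SE 0.55). The further 2 probe sets of WWTR1 gave -0.62 and 1.08, and -0.63 and 0.33, so they were lower in set 1 and higher in set 2. The last of these is the brightest of WWTR1, at a mean log2 of 11.54 over all arrays, against 7.11 for the named one. CREBZF, a bZIP protein that binds the coactivator HCFC1, had 572 and 487, against 169 and 161 in controls. The difference was 1.76 and 1.60 in the sets (3.21-fold, SE 0.42), and its 1 further measured probe set did not have that sign in both sets.

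SPINK6 and CSTA encode protease inhibitors. SPINK6, a Kazal-type inhibitor of serine proteases, had 451 and 467 under RHA siRNA, against 97.6 and 156 in controls. CSTA (cystatin A), an inhibitor of cysteine proteases, had 463 and 588, against 93.2 and 251. Means were 3.72-fold (SE 0.36) for SPINK6 and 3.41-fold (SE 0.62) for CSTA, with CSTA at log2 2.31 in set 1 and 1.23 in set 2. TMPRSS7, a serine protease of the cell surface, had 74.4 and 33.4, against 19.4 and 14.8 in controls. Its control mean lay below the limit of measurement, an intensity of 19.9, so that its fold is uncertain.

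The remaining genes on the high side had differences of a similar size. SUGCT, a mitochondrial CoA transferase, had log2 differences of 1.66 and 1.49, and BVES, a membrane protein of the Popeye family that binds cyclic AMP, had 1.2 and 1.24. The linker histone H1-2 had 1.77 and 2.06. LOC714001 and LOC697178, which carry no name in the annotation used, had 1.64 and 1.98, and 1.41 and 1.70. Of the 15 probe sets, 5 carry the suffix for probes shared between transcripts (H1-2, SUGCT, KDELR2, ELOVL6 and TMPRSS7), so other transcripts can add to their signal.

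**Figure D2:**
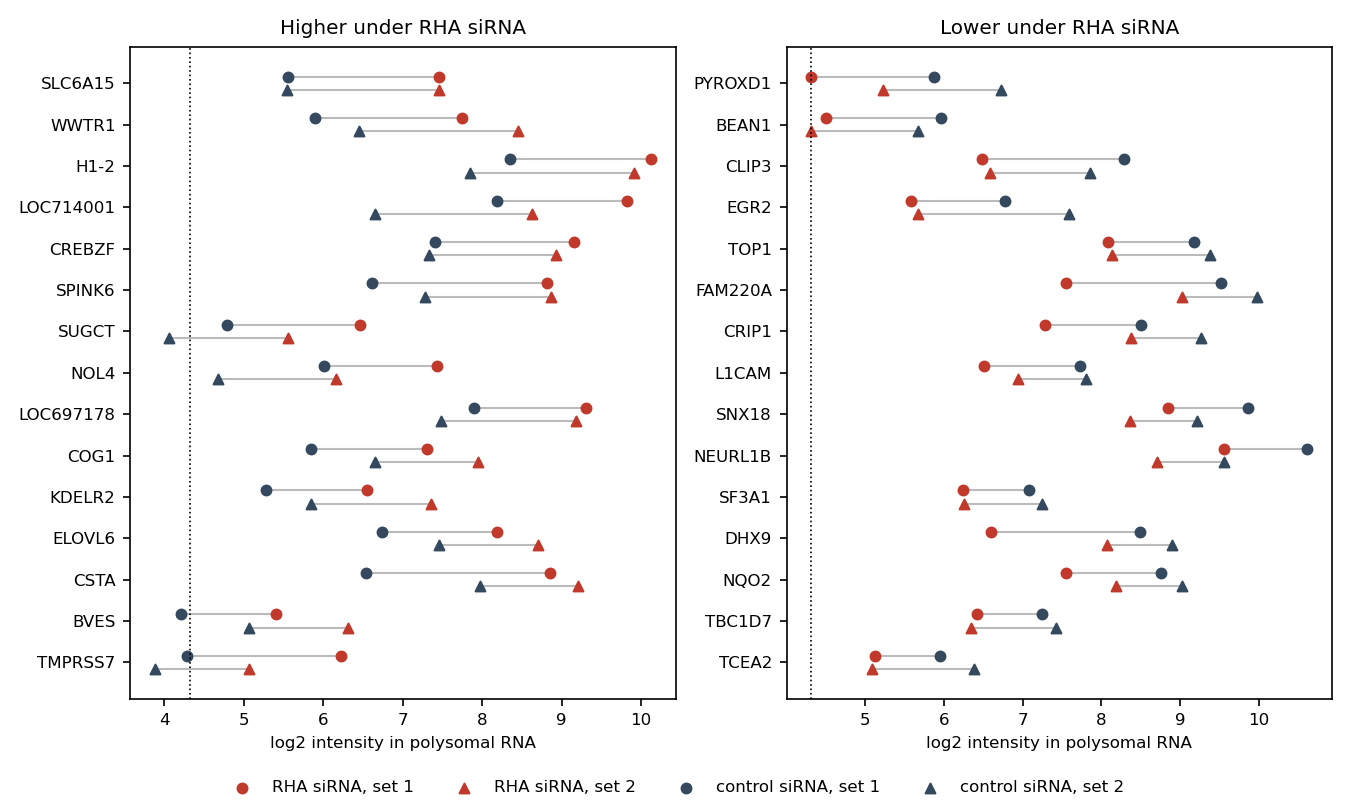
Log2 intensity of the 15 genes named as higher (left) and the 15 named as lower (right) in each polysomal array. Red marks are RHA siRNA and dark marks control siRNA arrays, circles are set 1 and triangles set 2, a grey line joins the arrays of a set, and the dotted line is the limit of measurement at log2 4.32. For SLC6A15 the 2 red marks coincide near 7.45 and the 2 dark marks near 5.55, whereas for NEURL1B the lowest control (intensity 751) lies just above the highest RHA siRNA array (748).

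Of the lower genes, EGR2, TOP1 and TCEA2 act in transcription and DNA topology. EGR2, an immediate-early zinc finger transcription factor, had intensities of 47.8 and 50.8 under RHA siRNA, against 110 and 193 in controls. The log2 difference was -1.2 in set 1 and -1.93 in set 2 (33.8% of control, SE 0.42), while the further probe set of EGR2 had 0.49 and 0.64, the opposite direction. TOP1, the topoisomerase that relaxes DNA through single-strand breaks, had 270 and 282, against 580 and 666 in controls. The probe set named was lower by similar sizes, -1.10 and -1.24 (44.4%, SE 0.31), while the further one had 0.26 and -0.77. TCEA2, a form of the elongation factor TFIIS, had 35.1 and 34.2, against 61.8 and 83.5. Its differences were -0.81 and -1.29, and all 3 of its further measured probe sets were lower in both sets.

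PYROXD1, an oxidoreductase, was the first by the rule, with 20 and 37.6 under RHA siRNA, against 59.0 and 107 in controls. Its differences were -1.56 and -1.5 (34.6% of control, SE 0.74). The RHA siRNA array of set 1 lay at the limit of measurement, and the 1 further measured probe set of PYROXD1 had -0.07 and -0.41. CLIP3, a protein with CAP-Gly domains that binds microtubules and Golgi membranes, had 90.0 and 96.5, against 310 and 233 in controls. The difference was -1.79 in set 1 and -1.27 in set 2 (34.6%, SE 0.31). BEAN1, a membrane protein that binds the ubiquitin ligase NEDD4, had 22.6 and 19.9, against 62.6 and 51.1, so that its RHA siRNA arrays lay at the limit of measurement.

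L1CAM, a cell adhesion molecule, had -1.22 and -0.85 on the probe set named and -0.37 and -0.38 on its other one. SF3A1, a subunit of the U2 snRNP, had -0.83 and -0.98, and 3 of its 6 further measured probe sets were lower in both sets. NQO2, a quinone reductase, had intensities of 187 and 292 under RHA siRNA, against 434 and 518 in controls, which is 49.3% of control. TBC1D7, a subunit of the TSC complex that restrains mTORC1, had 85.7 and 80.9, against 152 and 171, which is 51.6%. CRIP1, a LIM domain protein, had -1.22 and -0.88 on a probe set with the suffix for shared probes, and 0.18 and 0.13 on its 1 further measured one. SNX18, a sorting nexin, had -1.02 and -0.85 on the probe set named, but its brightest one had 0.38 and 0.07 and the other -1.36 and 0.79. NEURL1B, a ubiquitin ligase, had -1.06 and -0.84. FAM220A had -1.97 and -0.94, a set 1 difference more than log2 1 larger than that of set 2, as was that of DHX9.

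Some of these genes had other measured probe sets. Among the higher genes 7 had such probe sets, and 8 of 13 of these were higher in both sets. Among the lower genes 8 had them, and 8 of 16 were lower in both sets. For comparison, 27.9% of all probe sets were above 0 and 25.6% below 0 in both sets. Some of the further probe sets of ELOVL6, TCEA2 and SF3A1 differ from the named one only in the suffix of their names. Further ones of TCEA2 differ from each other only in that way. Such probe sets read the same target, so their agreement is no independent check.

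In the largest disagreements between the sets, 5 genes were lower in set 1 and higher in set 2. F11R, a tight junction adhesion molecule, had 52.3 and 88.5 under RHA siRNA, against 159 and 30.6 in controls (log2 -1.60 and 1.53). Its brightest probe set had -0.52 and 0.72. DAG1, the dystroglycan precursor, had -1.32 and 1.19, and -0.49 and 0.54 on its brightest probe set. ADAM9, a membrane metalloprotease, had -1.45 and 1.45 on the probe set that met this rule, but 0.01 and 0.19 on its brightest one. PDIA6, a protein disulphide isomerase, had -1.84 and 1.13, and -0.11 and 0.33 on its brightest one. SERPINH1, the collagen chaperone, had -1.19 and 1.23, and 0.51 and 0.45 on its brightest one. In the other direction were 2 genes. USP16, a deubiquitinase of histone H2A, had 1.23 and -1.07, and 1.02 and -0.31 on its brightest probe set, and the zinc finger gene ZNF141 had 1.18 and -1.03. Means of the 7 genes, between -0.36 and 0.08, describe neither set. In set 1 the 3′ minus 5′ differences of actin and GAPDH were also larger under RHA siRNA and in set 2 smaller, with a shift of 0.23 for EF1a in set 1, and their part in these genes was not tested.

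Histone genes were described in 3 kinds. Replication-dependent histone mRNAs are made in S phase and end in a stem-loop instead of a poly(A) tail. How well the amplification captured mRNAs without that tail was not tested. Of 6 linker histone genes with a probe set, 4 were measured, and all 4 were higher in both sets (median 0.64). With all 6, 5 were higher and 1 lower in both sets (median 0.34). A stricter filter moved the median to 1.17, but it kept only H1-2 (mean difference 1.91) and H1-3 (0.42). Of 33 core histone genes with a probe set, 15 were measured, of which 10 were higher in both sets and 1 lower in both (median 0.45), beside 27.3% and 27.4% of all genes. H2AC7, H2AC8 and H2AC13 passed the filter although their control means lay below the limit of measurement, and H2BC26 although its RHA siRNA mean did. Of the 11 core genes with both means at or above the limit, 7 were higher and 0 lower in both sets, beside 27.1% and 27.3% of all such genes. Over all 33, without a filter, 20 were higher and 4 lower in both sets (median 0.27), beside 28.0% and 25.6% of all genes with a probe set. At 1.5-fold in both sets there was 1 linker gene, H1-2, and of the core genes H4C8 and H2AC13. Of 6 measured replication-independent variants, which are polyadenylated, 1 was above 0 and 1 below 0 in both sets (median -0.01). These lists were drawn up with earlier results of the same arrays known, so the histone pattern is no independent support.

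H1-2 had the highest value of the group, with intensities of 1111 and 963 under RHA siRNA, against 326 and 231 in controls. The groups did not overlap, and the mean was 3.77-fold (log2 1.91, SE 0.43; group means 10.01 ± 0.15 and 8.10 ± 0.35, SD, n = 2 each). Its 2 other probe sets lay below the limit of measurement, with 0.04 and -0.01, and -0.05 and 0.76. H1-4 had 35.8 and 70.7, against 24.3 and 31.7 in controls, again without overlap. H1-3 had 38.9 and 400.0, against 28.8 and 300.0, so its sets differed more than its treatments, while both sets gave a similar difference (0.43 and 0.41).

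Among the core histone genes, H4C8 had 45.0 and 58.6 under RHA siRNA, against 25.9 and 26.4 in controls (log2 0.79 and 1.15, SE 0.33). H2AC13 had 28.0 and 35.5, against 11.9 and 17.3, and H2AC8 had 19.9 and 50.1, against 14.6 and 18.7. The control means of both lay below the limit of measurement, so their folds are uncertain. H2BC11 was higher by 0.40 in set 1 and by 1.98 in set 2. H2AC6 (-0.10 and 0.10), H2AC25, H3C2 and H4C11 had opposite signs in the 2 sets, and H2BC26, at -0.15 and -0.23, was lower in both. The probe sets of H2AC6, H4C11 and H2AC25 were the brightest of the measured core genes (mean log2 8.91, 8.58 and 8.05 over all arrays). Those of H4C8 and H2AC13 were dimmer (5.38 and 4.42). H2AZ1, a variant gene with intensities of 5592 and 3188, against 5533 and 3183, differed by 0.02 and 0.00, and H3-3B by -0.11 and 0.08. Of 9 genes for histone mRNA processing and its regulators, 3 were higher and 1 lower in both sets (median 0.03), shares of 33.3% and 11.1%. ERI1, the exonuclease that trims the stem-loop end, had 0.54 and 0.58, and NPAT, the coactivator of histone transcription, 0.43 and 0.12. SLBP, which binds the stem-loop, had -0.24 and 0.00, and CASP8AP2, a cofactor of NPAT, 0.02 and -0.53. The probe sets of H1-2, H2AC20, H2BC7 and H2BC26 carry suffixes for probes that other transcripts can bind. Histone genes are near-identical copies of each other, so that signals can be split or shared among them.

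**Figure D3:**
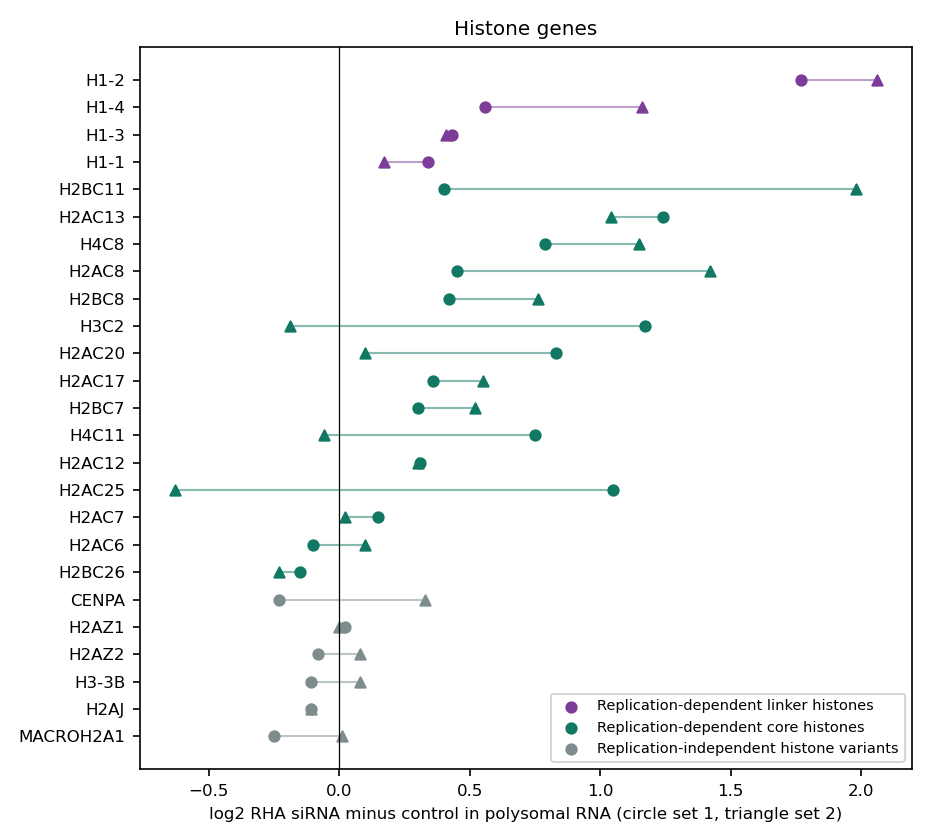
Log2 RHA siRNA minus control in polysomal RNA for each measured histone gene, with circles for set 1, triangles for set 2 and colours for the 3 kinds of histone gene. All 4 linker histone genes lie right of 0 in both sets and H1-2 lies farthest right in both, whereas the 6 replication-independent variants lie between -0.25 and 0.33.

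JUND, whose 5′ leader binds RHA, had intensities of 31.2 and 41.2 under RHA siRNA, against 75.5 and 52.8 in controls. The groups did not overlap, but most of the difference was in set 1 (log2 -1.28, against -0.36 in set 2), with a mean of 56.8% of control (SE 0.38). AP-1 and immediate-early genes, a list that includes JUND and responds quickly to serum, were more often lower than higher. Of 25 measured, 10 were lower in both sets and 5 higher, beside 27.4% and 27.3% of all genes, and the median was -0.09. These shares of all genes are also the background for the counts of measured genes in each list below. At 1.5-fold in both sets 3 were lower and 0 higher, beside 1.29% of all genes in each direction. IER2 had 405 and 494, against 667 and 844 in controls (-0.72 and -0.77). FOS had 52.9 and 21.6, against 79.7 and 54.5 (-0.59 and -1.33). JUNB had 202 and 70, against 365 and 96.9, and its groups overlapped. Among 24 growth regulators with long or structured 5′ leaders, 10 were higher and 7 lower in both sets (median 0.08), and 2 were at least 1.5-fold higher in both.

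Targets of p53, a transcription factor of the DNA damage response, were split, with 6 of 20 higher and 5 lower in both sets (median 0.00). In COS cells p53 is bound by large T antigen. Of the 20, 3 members were at least 1.5-fold higher in both sets, beside 1.29% of all genes. Of all 27 with a probe set, 6 were higher and 8 lower in both. GADD45A, a growth arrest gene induced by DNA damage, had 764 and 759 under RHA siRNA, against 364 and 409 in controls, which is 1.97-fold (SE 0.32). RRM2B, a ribonucleotide reductase subunit, had 113 and 83.4, against 44.0 and 46.7, which is 2.14-fold. MDM2, the ubiquitin ligase of p53, had 60.9 and 88.8, against 38.0 and 49.1. Neither further measured probe set of GADD45A was higher in both sets, nor was the 1 of RRM2B, while both of MDM2 were. CDKN1A, the p53-induced cell cycle inhibitor, had -0.30 and 0.04.

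Genes of the unfolded protein response and of folding in the endoplasmic reticulum had a median of -0.06 in set 1 and 0.60 in set 2. Of 29 measured, 8 were higher and 3 lower in both sets. ERO1A, the oxidase that regenerates protein disulphide isomerase, had 209 and 416 under RHA siRNA, against 111 and 180 in controls (log2 0.92 and 1.21). KDELR1, a paralogue of KDELR2, had 544 and 741, against 1144 and 1088, so it was lower where KDELR2 was higher. HERPUD1, which acts in degradation of misfolded proteins, had 0.28 and 1.47, and P4HB had -1.27 and 0.62.

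Targets of ATF4, the transcription factor of the integrated stress response, were split evenly, with 6 of 19 higher and 6 lower in both sets (median 0.06). CHAC1, which degrades glutathione, had 0.78 and 0.90 and was at least 1.5-fold higher in both sets. DDIT3 (CHOP), a stress-induced transcription factor, had 541 and 735 under RHA siRNA, against 362 and 391 in controls, without overlap (0.58 and 0.91). Amino acid transporters had 8 of 18 higher and 4 lower in both sets (median 0.05), beside 27.3% and 27.4% of all genes. SLC6A15 was the 1 member past 1.5-fold in both. SLC1A4 had 0.28 and 0.87, and SLC7A11, the cystine exchanger, 0.10 and 0.02. Of 13 aminoacyl-tRNA synthetase genes, 0 were higher and 5 lower in both sets, beside 27.3% and 27.4% of all genes. WARS1 had -0.51 and -0.26, and MARS1 -0.31 and -0.26.

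The DExD/H-box helicases other than DHX9 went in both directions. Of 37 measured, 13 were higher and 10 lower in both sets (median 0.03), and 1 was at least 1.5-fold lower in both. That was DDX41, a helicase and DNA sensor, with 58.8 and 61.4 under RHA siRNA, against 120 and 100.0 in controls. DDX39A, which acts in mRNA export, had -0.83 and -0.42 and did not overlap either. On the other side, DHX15, a splicing helicase, had 0.67 and 0.38, DDX20 had 0.52 and 0.34, and DDX3X had -0.05 and 0.60. Double-stranded RNA binding proteins and known partners of RHA had 5 of 22 higher and 4 lower in both sets, with SYNCRIP at 0.56 and 0.28, STAU1 at -0.27 and -0.29 and CREBBP at -0.25 and -0.29.

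In RISC and miRNA processing, 5 of 15 genes were higher and 3 lower in both sets, beside 27.3% and 27.4% of all genes. AGO3, an Argonaute protein, had 54.7 and 101 under RHA siRNA, against 25.5 and 52.1 in controls (1.10 and 0.96), without overlap. AGO4 had 1.03 and 0.30, AGO2 0.17 and 0.31, and AGO1 -0.02 and -0.20. FMR1, the fragile X protein that binds mRNA on polysomes, had -0.68 and -0.36.

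Interferon-stimulated and RNA-sensing genes, which double-stranded RNA can induce, were more often lower than higher. Of 25 measured, 3 were higher and 10 lower in both sets, beside 27.3% and 27.4% of all genes, with a median of -0.17 (-0.30 in set 1 and -0.03 in set 2). Over all 32 with a probe set, 6 were higher and 10 lower, and the median was -0.08. OAS3, an oligoadenylate synthetase, had 30.6 and 137 under RHA siRNA, against 83.1 and 281 in controls. It was at least 2-fold lower in each set (-1.44 and -1.04), though the groups overlapped. IRF7 had -0.39 and -0.50, IFI35 -0.31 and -0.44, and IFIH1, the sensor MDA5, -0.31 and -0.28. IFIT1 was 1 of the 3 higher in both, with 0.39 and 0.12.

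Genes of the translation machinery had medians near that of all genes. Cytosolic ribosomal protein genes had 7 of 36 higher and 11 lower in both sets (median -0.02), mitochondrial ones 21 of 59 higher and 11 lower (0.07), and translation factors 10 of 36 higher and 9 lower (0.00). EIF3I, a subunit of the initiation factor eIF3, was at least 1.5-fold lower in both sets, with 1813 and 1973 under RHA siRNA, against 2842 and 3195 in controls. RPS10, a protein of the small subunit, was lower as well, with 225 and 258, against 390 and 393 (-0.80 and -0.61). EIF2S1, a subunit of eIF2, had 3023 and 2240, against 1836 and 1724, and was higher without overlap (0.72 and 0.38). UPF3A, a nonsense-mediated decay factor, had 349 and 346, against 569 and 529 (-0.70 and -0.61).

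Glycolysis genes had the lowest median but 1 of the lists with at least 5 genes, -0.34, made up of -0.70 in set 1 and -0.11 in set 2. Of 16 measured, 9 were lower and 5 higher in both sets, beside 27.4% and 27.3% of all genes, and 0 were 1.5-fold apart in both. ALDOA, an aldolase, had 694 and 1135 under RHA siRNA, against 1415 and 1630 in controls (-1.03 and -0.52). ENO1, an enolase, had 3812 and 3503, against 5862 and 4176, whereas HK1, a hexokinase, was higher by 0.46 and 0.47. PKM, pyruvate kinase, had -1.60 in set 1 and -0.25 in set 2. The larger differences in set 1 stood beside the 3′ minus 5′ shift of actin and GAPDH there (EF1a 0.23), whose part was not tested. ME1, the cytosolic malic enzyme that supplies NADPH, had 498 and 358, against 875 and 873 (-0.81 and -1.29, 48.3% of control, SE 0.34), and 2 of its 4 further measured probe sets were lower in both sets. Oxidative phosphorylation genes had 12 of 52 higher and 17 lower in both sets, with COX7A2, a cytochrome oxidase subunit, at 324 and 285, against 686 and 472.

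In protein turnover, proteasome subunits had 6 of 27 higher and 8 lower in both sets (median -0.09). UBA1, the main ubiquitin-activating enzyme, had 124 and 163 under RHA siRNA, against 352 and 271 in controls, which is 46.1% of control (SE 0.32). UBA6, the other such enzyme, had -0.55 and -0.37. In splicing, 9 of 46 genes were higher and 12 lower in both sets. SRSF10, a serine/arginine-rich splicing factor, had 315 and 509, against 163 and 272 (0.95 and 0.90). SNRPA, a protein of the U1 snRNP, had 194 and 47.8, against 490 and 101, so it was lower in each set while the groups overlapped.

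Among chromatin proteins of the HMG families and RNA-binding proteins of the IGF2BP and LIN28 families, 6 of 16 were higher and 4 lower in both sets. HMGA2, an architectural chromatin factor of embryonic cells, had 50.6 and 61.0 under RHA siRNA, against 22.9 and 16.1 in controls. The groups did not overlap, but the control mean lay below the limit of measurement, so the fold is uncertain. Its 1 further measured probe set was not higher in both sets. In the Hippo pathway, 7 of 22 were higher and 5 lower in both sets. TEAD1, the DNA-binding partner of WWTR1 and YAP1, had 0.89 and 0.96 with overlapping groups, and YAP1 had -0.31 and -0.31.

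Extracellular matrix genes differed between the sets, with medians of -0.54 in set 1 and 0.27 in set 2. Of 27 measured, 6 were higher and 5 lower in both, and 16 had opposite signs. LOX, which cross-links collagen, had 1871 and 1114 under RHA siRNA, against 758 and 730 in controls (1.30 and 0.61). TIMP2, a metalloprotease inhibitor, had -1.35 and 0.68, and FN1, fibronectin, -0.69 and 0.69. Fibroblast and mesenchymal markers had medians of -0.33 and 0.49. Kidney tubule markers had 0 of 11 higher and 6 lower in both sets (median -0.38), beside 27.3% and 27.4% of all genes. Of all 18 with a probe set, 1 was higher and 9 were lower (median -0.14), beside 28.0% and 25.6%. PAX8, a kidney transcription factor, had 77.5 and 78.1 under RHA siRNA, against 95.8 and 113 in controls. Replication and cell cycle genes were mixed. Of 37 G1/S genes, 6 were higher and 11 lower in both sets. Of 27 mitosis genes, 12 were higher and 4 lower, beside 27.3% and 27.4% of all genes. The mitosis median was 0.30 in set 1 and -0.02 in set 2.

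**Figure D4:**
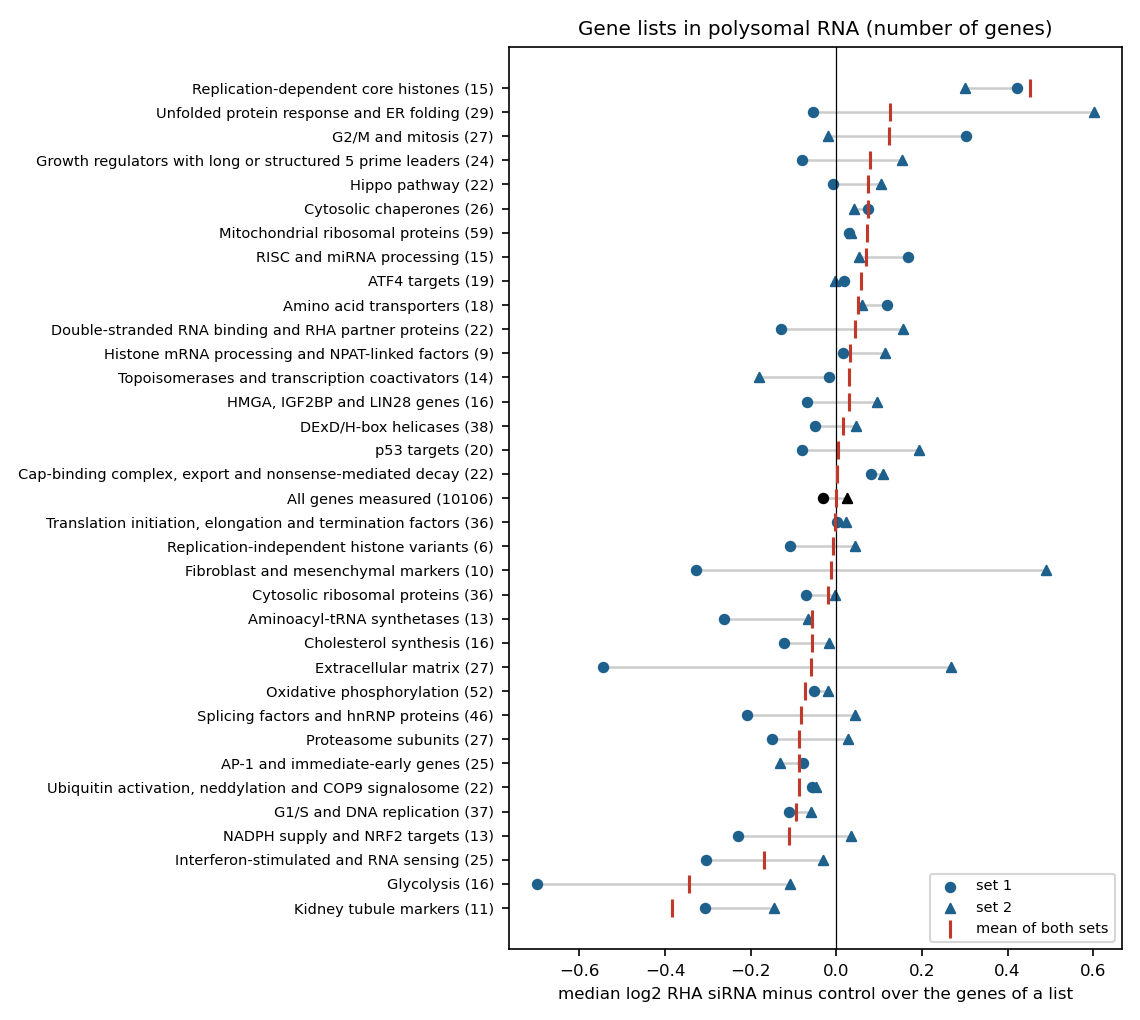
Median log2 RHA siRNA minus control in polysomal RNA over the genes of each list with at least 5 measured genes, with circles for set 1, triangles for set 2, red ticks for the median of the mean difference, and the number of genes in brackets. Black marks are all 10106 genes, near 0, and 19 of 34 lists have medians of the same sign in both sets. Core histones and kidney tubule markers lie at the ends, and extracellular matrix genes span from -0.54 to 0.27.

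Cytoplasmic RNA of the same treatments was used to see which of these differences were also found there. Of the 130 genes at least 1.5-fold higher in both polysomal sets, 41 met the same rule in cytoplasm, which is 31.5% of them and 12.2% of the 335 that met it in cytoplasm (3.31% of all genes). On the low side 32 met both, 24.6% of the 130 polysomal genes and 13% of the 246 cytoplasmic ones (2.43%). By sign alone, 99 of the 130 higher genes (76.2%) were above 0 in both cytoplasmic sets, beside 29.3% of all genes, and 75 of the 130 lower genes (57.7%) were below 0 in both, beside 24.1%. Of the 30 genes named first, 14 of 15 in each direction had their polysomal sign in both cytoplasmic sets. On the probe sets named, H1-2 had 2.60 and 2.18 in cytoplasm, WWTR1 1.93 and 1.98, TOP1 -1.87 and -1.35, and EGR2 -1.21 and -1.86.

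The siRNA effect in polysomes minus that in cytoplasm passed the test for 0 probe sets (0%) in limma, without or with the replicate block, with 46 (0.174%) at an unadjusted p under 0.05, or 1048 (3.97%) with the block. CLIP3 was lower in polysomes but had -0.20 and -0.03 in cytoplasm, a difference between fractions of -1.41 (-1.59 in set 1 and -1.24 in set 2, unadjusted p = 0.016 and adjusted p = 1.00 in limma). HMGA2 had 1.14 and 1.93 in polysomes and 0.28 and 0.23 in cytoplasm. The difference was 1.28, made up of 0.87 in set 1 and 1.69 in set 2 (unadjusted p = 0.0328 and adjusted p = 1.00 in limma). CLIP3 and HMGA2 were chosen by their polysomal differences, which this contrast uses again, so both p-values are a description. Among the genes named first, only CLIP3 had an unadjusted p under 0.05 for it in limma. NQO2, at -0.35 and -0.35 in cytoplasm, and the named probe set of CRIP1, at -0.13 and -0.08, also differed less there, with differences between fractions of -0.67 and -0.94. For JUND the cytoplasmic values were -0.58 and 0.20, a difference between fractions of -0.63, and for IER2 they were 0.53 and -0.09, a difference of -0.97 (-1.25 in set 1 and -0.69 in set 2). In cytoplasm, 1 array was less like the rest of its set: the control array of set 1 had a Pearson's r of 0.931 to 0.952 with the other 3 arrays of set 1, while those had 0.968 to 0.976 among themselves. Every cytoplasmic difference of set 1 uses that array, and the values of set 2 do not.

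**Figure D5:**
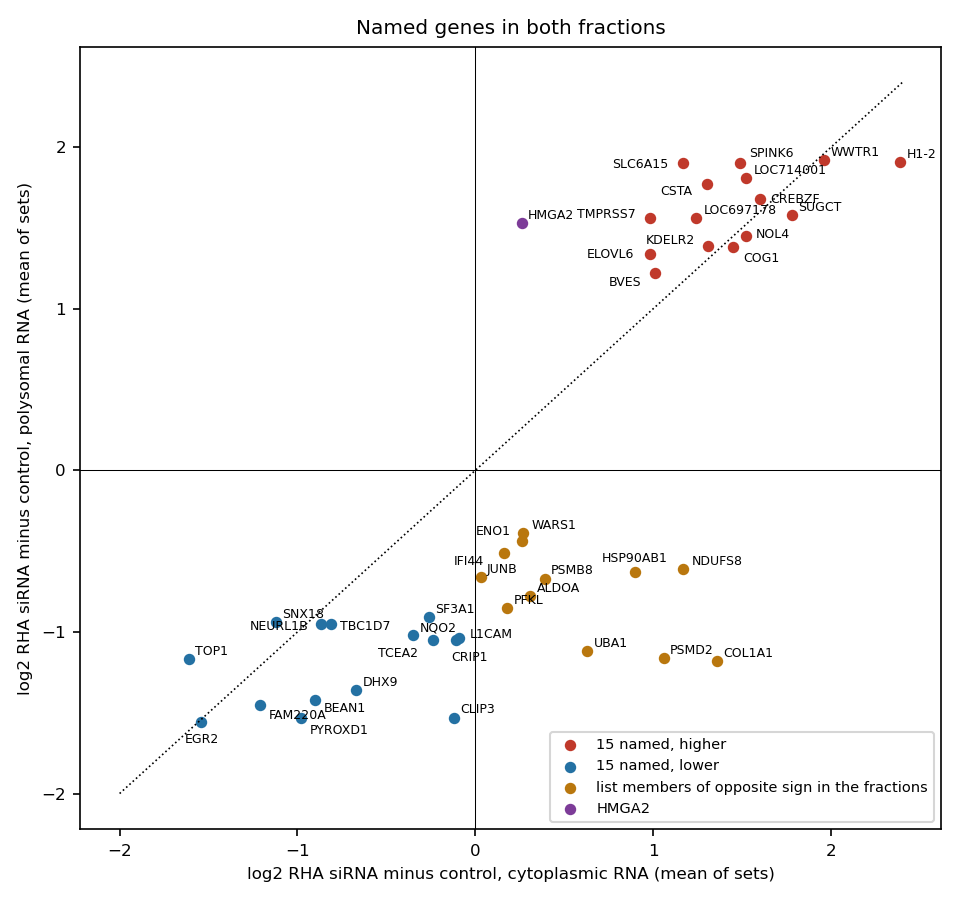
Mean log2 RHA siRNA minus control in cytoplasmic RNA (horizontal) and in polysomal RNA (vertical) for the 30 genes named first, HMGA2 and 12 list members whose sign differed between the fractions. The dotted line marks equal differences, WWTR1 lies on it at the upper right, CLIP3 at -1.53 in polysomes lies near 0 in cytoplasm, and UBA1, PSMD2 and COL1A1 are lower in polysomes and higher in cytoplasm.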

How the data were processed

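Each of the 8 arrays gave 1 column of deposited intensity values, linear and 1 per probe set, taken as normalised by the authors because the array medians are close. GCOS and RMA are named in the submitters' processing notes, with no version or role. No column was left unused. Probe-level files, detection calls and scan dates were not used here. Intensities were put on the log2 scale, starting from the deposited values. The table held 52865 probe sets, 99 of them controls. The 26383 with the higher mean log2 over 8 arrays (50%) were measured, which set the limit at log2 4.32. Of these, 16072 carried 1 gene symbol in the platform's annotation, for 10106 genes. Among all probe sets, 24969 carried 1 symbol, 361 several and 27535 none, and none of the last 2 kinds was named.

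RHA siRNA was compared with control in limma 3.58.1 (R 4.3.3; two-sided moderated test after lmFit and eBayes), with the 4 groups as the model over all 8 arrays and no replicate block, so that the cytoplasmic arrays share the estimate of the spread. The threshold was a Benjamini-Hochberg adjusted p of 0.05 over all measured probe sets. SE values are from that fit, so they include the spread between the sets and not only that of the within-set differences. There is no read depth on arrays, and their number limits the precision. Whether both replicates came from their own cultures is not stated in the labels, so p-values reflect the spread among these arrays alone, which may be technical.

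Named genes were up to 15 per direction with no overlap between groups, ordered by the smaller within-set difference; up to 5 per direction at least 2-fold apart in opposite directions; DHX9 and JUND; and up to 4 members of each of 38 gene lists. Further list members are named only for context, after their values were seen. Lists, with 1 probe set per gene (the brightest), were described by counts and medians and not tested. Members, lists and rules were chosen with earlier results of these data known. Deviations of the RHA siRNA and control polysomal arrays of the same number from their group means correlated with r = 0.852, but there are only 2 numbers and the labels do not say that they mark shared material, so the block is an alternative. Other alternatives were the filter, the normalisation, an offset of 16 before log2, the variance model, the polysomal arrays alone and leaving out single arrays.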

Additional observations from a re-analysis of the deposited data

Results flagged for a closer look

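Of the 110 list members named by rule, 12 were lower under RHA siRNA in both polysomal sets and higher in both cytoplasmic sets. The share of all genes with this pattern was not counted. Of the 130 genes at least 1.5-fold lower in both polysomal sets, 11 (8.46%) were above 0 in both cytoplasmic sets, beside 29.3% of all genes. Opposite signs were thus rarer among these 130 than that share. The 12 were picked by their opposite signs in the fractions, so their p-values are a description. The values below are the polysomal minus the cytoplasmic log2 difference. For respiratory complex I subunit NDUFS8 it was -1.78 (-0.61 in polysomes and 1.17 in cytoplasm, unadjusted p = 0.00562 in limma). For the ubiquitin-activating enzyme UBA1 it was -1.74 (-1.12 and 0.63, unadjusted p = 0.00774 in limma), and for the proteasome subunit PSMD2 -2.22 (-1.16 and 1.06, unadjusted p = 0.0409 in limma). By set, NDUFS8 had -1.93 in set 1 and -1.64 in set 2 and UBA1 had -2.24 and -1.25. PSMD2 had -4.07 in set 1 and -0.36 in set 2, so its mean rests on set 1 and on the cytoplasmic control array that stood apart there. The adjusted p was 1.00 in limma for each of the 12.

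The other 9 had unadjusted p-values between 0.0892 (ALDOA) and 0.625 (JUNB) in limma. The collagen gene COL1A1 had -2.54 (-3.50 in set 1 and -1.58 in set 2), the chaperone HSP90AB1 -1.53 (-2.66 and -0.41) and the immunoproteasome subunit PSMB8 -1.06 (-1.28 and -0.83). Among glycolytic enzymes ALDOA had -1.09 (-1.44 and -0.74), PFKL -1.04 (-1.64 and -0.44) and ENO1 -0.70 (-0.89 and -0.50). The difference was larger in set 1 for all 12. JUNB had -0.69, the interferon-stimulated gene IFI44 -0.67 and the tryptophanyl-tRNA synthetase WARS1 -0.66. The RHA siRNA mean of IFI44 lay below the limit of measurement.

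In set 1 the 3′ minus 5′ difference of actin was larger under RHA siRNA by log2 1.71 in polysomes and smaller in cytoplasm (-1.56), and that of GAPDH was larger by 1.63 and smaller in cytoplasm (-1.15). For EF1a the shifts were 0.23 and -0.61. In set 2 the shifts of actin and GAPDH lay between -0.47 and -0.27. Their part in the 12 genes was not tested. With groups of 2 arrays, no single array could be tested as an outlier.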

How the results depend on the processing

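Limma called 0 probe sets in polysomal RNA in every alternative run, among them the replicate block, the polysomal arrays alone, each filter and normalisation and each fit without 1 array; for the difference between fractions, which was not fitted on polysomal arrays alone, it also called 0. At an unadjusted p under 0.05 the count was 137, against 1334 with the replicate block, 75 on polysomal arrays alone and 2086 on those with the block. Leaving out 1 polysomal array gave 73 to 188 such probe sets. Without the cytoplasmic control array of set 1, an alternative chosen after seeing the data, it was 130, or 1974 with the block. For at least 2-fold higher in both sets (51) a stricter filter left 32 and an offset of 16 left 25; for 2-fold lower (20) they left 9 and 6. At 1.5-fold they left 232 and 219 of 381 higher, and 168 and 139 of 295 lower. The stricter filter keeps fewer probe sets, 13192, of which 0.243% were 2-fold higher and 0.0682% lower, and 1.76% and 1.27% at 1.5-fold. Single sets gave 488 to 491 and 139 to 857 probe sets at 2-fold, and 2089 to 2497 and 1285 to 3160 at 1.5-fold, higher first; these counts need only 1 set to pass. Of 133 gene values under 1696 alternatives, 1 changed sign: H2AZ1, at -0.02 with array medians set equal, and 0 passed the threshold. These genes were chosen with the same sign in both sets, so a single set could not change it. The block, the filters, the variance model and the polysomal arrays alone leave a difference as it is. Only the normalisations and the offset could change a sign, so this count says little about stability. For 37 lists, 61 of 333 alternative medians moved by more than the spread between the sets; genes with both polysomal group means at or above the limit were an alternative chosen after seeing the data. The median of linker histones was 0.34 with no filter and 1.17 with a stricter one. The median of all genes was between -0.03 and 0.01.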
